A study of Mus musculus with 41 samples.

Results

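The comparison described here is of endocardial cells grown on DLL4 with cells grown on JAG1 while γ-secretase was inhibited in both. It covers 6 libraries of the 41 in the series: 3 labelled rDLL4+RO and 3 labelled rJAG1+RO, paired by the replicate number in their titles, with all 13407 listed genes taken on the scale log2(signal + 1). The question is whether any difference between the ligands remains when γ-secretase is inhibited. MEEC is a mouse embryonic endocardial cell line of wild-type genotype, and the series as a whole measured its RNA in 13 groups under several ways of raising or lowering Notch activity.

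All 6 libraries came from MEEC seeded on dishes coated with recombinant ligand, the DLL4-His protein for rDLL4+RO and the JAG1-Fc protein for rJAG1+RO, and kept for 38 h in 20 µM RO4929097, a small-molecule γ-secretase inhibitor. The last 14 h were without serum. The matching groups with vehicle, rDLL4 and rJAG1 (n = 3 each), received DMSO in place of the inhibitor, and the group called DMSO (n = 3) had vehicle and no recombinant ligand. Inhibitor or DMSO was added once the cells had been seeded. The ligands carry different tags and were bound to the dishes as separate coatings, so ligand and tag cannot be told apart. The cells are 1 established line. The labels do not say whether the 3 libraries of a group are separate cultures, so a p-value here reflects only how these libraries vary, and that variation may be technical.

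Notch receptors are activated by ligands presented on a neighbouring surface. Binding of a Delta-like or Jagged ligand exposes the receptor to ADAM proteases and then to γ-secretase, which frees the intracellular domain. That domain joins the DNA-binding protein RBPJ and Mastermind-like coactivators in the nucleus and switches on the Hes and Hey repressor genes and the feedback inhibitor Nrarp. In the embryonic heart, DLL4 and JAG1 in the endocardium signal through Notch1 during trabeculation and valve formation.

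The libraries with inhibitor held 13.1 to 23.1 M reads (M, mega), and all 15 libraries of the experiment 11.2 to 34.2 M. The signal is the authors' normalized value on a counts-per-million scale, and 3 reads, which is as many as a library with 0 reads allows at 95% confidence, equalled a signal of 0.127 to 0.226 in the 6 libraries (counting error only). Pairs of libraries within the inhibitor groups differed by 5.71 to 12.4 times the variance that counting gives (chi-square per gene), so no pair agreed within counting noise. This does not show that they came from separate cultures. On the second principal component, which held 14.1% of the variance, DMSO replicate 3 lay at −27 and rJAG1 replicate 2 at 20.7, with the other libraries between −11.5 and 11.4. Chi-square per gene was 35.3 and 52.5 between DMSO replicate 3 and its group, and 17.9 and 22.2 between rJAG1 replicate 2 and its group. Neither is among the 6 libraries with inhibitor, but both help to set the spread in the fit over 15 libraries described below. Of 26 endothelial and endocardial markers 12 were among the listed genes, with a summed signal of 310 to 319 on rDLL4+RO and 294 to 315 on rJAG1+RO. Tek, Kdr, Cd34 and Klf4 were listed, whereas the defining markers Pecam1, Cdh5, Flt1, Tie1, Emcn, Vwf and Erg were not, a listed gene being one that reached a signal of 1 in at least 3 libraries. Of the markers of other cells, 2 of 10 for cardiomyocytes were listed, with sums of 13.8 to 16.3 on rDLL4+RO and 13.7 to 17.8 on rJAG1+RO, and 4 of 16 for leukocytes and erythroid cells, with sums of 3.06 to 6.54 and 3.92 to 4.93. The sums of 8 epithelial markers (838 to 925 and 874 to 944) and of 3 stromal and adipocyte markers (848 to 972 and 845 to 891) overlapped between the ligands too. Fewer cells of a type and less RNA per cell cannot be told apart in such bulk libraries.

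RefSeq promoter windows (build GRCm38.p6, 250 bases before to 50 after the gene start) are shown for 2 Notch targets whose ligand difference was called with vehicle and not with inhibitor, and for Dusp5, an immediate early gene among the 20 of smallest p with inhibitor. In Hey2 (chr10:30842734-30843033, minus strand) and Nrarp (chr2:25180508-25180807, plus strand) capitals mark the RBPJ core TGGGAA or its complement TTCCCA, searched on both strands. In Dusp5 (chr19:53528895-53529194, plus strand) capitals mark the CArG box, the element bound by serum response factor.

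Hey2: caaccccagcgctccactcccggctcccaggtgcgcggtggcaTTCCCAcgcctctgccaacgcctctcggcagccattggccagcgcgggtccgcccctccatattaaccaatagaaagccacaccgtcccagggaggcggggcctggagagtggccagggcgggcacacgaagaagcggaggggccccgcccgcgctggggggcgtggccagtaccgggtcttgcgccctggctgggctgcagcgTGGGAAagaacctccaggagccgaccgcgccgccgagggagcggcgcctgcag
Nrarp: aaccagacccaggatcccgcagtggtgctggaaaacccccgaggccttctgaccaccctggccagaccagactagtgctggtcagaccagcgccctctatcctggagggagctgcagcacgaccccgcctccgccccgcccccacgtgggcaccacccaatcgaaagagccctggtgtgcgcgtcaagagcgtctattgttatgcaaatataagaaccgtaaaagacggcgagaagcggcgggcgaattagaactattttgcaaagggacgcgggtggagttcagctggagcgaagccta
Dusp5: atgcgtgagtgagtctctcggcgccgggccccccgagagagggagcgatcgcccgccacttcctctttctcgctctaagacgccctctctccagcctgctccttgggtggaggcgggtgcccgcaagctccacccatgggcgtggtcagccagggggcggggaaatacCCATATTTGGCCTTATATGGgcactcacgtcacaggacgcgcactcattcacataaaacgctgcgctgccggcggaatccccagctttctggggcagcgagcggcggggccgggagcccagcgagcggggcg

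The Hey2 window held 2 RBPJ cores, starting 207 and 3 bases before the gene start, and the Nrarp window held 0. Of 32851 windows 25.6% held at least 1 such core. The Dusp5 window held 2 CArG boxes side by side, against 1.63% of all windows with at least 1. A match is a description of letters only. Hes1, Hey1 and Heyl have no entry in the table of windows.

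With the inhibitor present, no gene differed between the ligands in the limma fit over the 15 libraries of the experiment, in which the replicate number was a block. Of 13407 genes 0 passed at an adjusted p under 0.05 (0%), the smallest adjusted p was 0.95, and 487 (3.63%) had an unadjusted p under 0.05, 225 of them higher and 262 lower on rDLL4+RO. Without DMSO replicate 3 this limma fit also called 0 genes, with 875 at an unadjusted p under 0.05. With edgeR on the recovered reads the count was also 0, with 482 at an unadjusted p under 0.05. DESeq2 on the same reads called 8 genes, 4 higher and 4 lower on rDLL4+RO, with 312 at an unadjusted p under 0.05. The median absolute difference was 0.065 on the log2 scale, with a median SE of 0.094. The fit bounded most genes on the log2(signal + 1) scale. The 95% interval lay within 0.5 of 0 for 11555 genes (86.2%) and within 1 of 0 for 13181 (98.3%). Among the 10667 genes with a mean signal of at least 5 these shares were 95.3% and 99.5%. The estimated difference exceeded 0.5 in size for 136 genes and 1 for 15.

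The count depends on which libraries set the spread. In a limma fit over the 6 libraries alone, again blocked by replicate number, 62 genes passed (0.462%), 31 higher and 31 lower on rDLL4+RO, with a smallest adjusted p of 0.00083. That fit rests on 2 residual degrees of freedom per gene against 8 in the fit over 15 libraries. Its median residual SD was 0.073 against 0.117, and its median SE 0.067 against 0.094. All 62 genes had the same sign in the 3 pairs (34% of all genes did), and 30 had libraries that did not overlap between the ligands (8.64% of all genes), both of which follow in part from their choice by this fit. Their median absolute difference was 0.53. Genes described below as passing over the 6 libraries did not pass in limma over 15. Below, passing over 15 libraries refers to limma unless another tool is named.

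The canonical Notch targets did not pass with inhibitor in either fit (adjusted p of 0.34 or more over the 6 libraries). Hey1 (chr3:8663359-8667256), a repressor induced directly by Notch, had a signal of 0.785, 0.828 and 0.639 on rDLL4+RO in replicates 1 to 3. On rJAG1+RO it was 0.717, 0.420 and 0.621. The values overlapped, and lay at 8 to 19 reads per library. The difference was 0.15 (95% interval −0.14 to 0.44). At signals under 1 the added 1 shrinks this difference, which was 0.02 to 0.39 over 17 alternatives. With vehicle, Hey1 was 6.46, 6.01 and 5.19 on rDLL4 and 15.7, 19.2 and 13.2 on rJAG1, so all libraries on rJAG1 were above all on rDLL4. In cells without ligand it was 0.748, 0.816 and 0.754, within the range of the libraries with inhibitor.

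**Figure D1:**
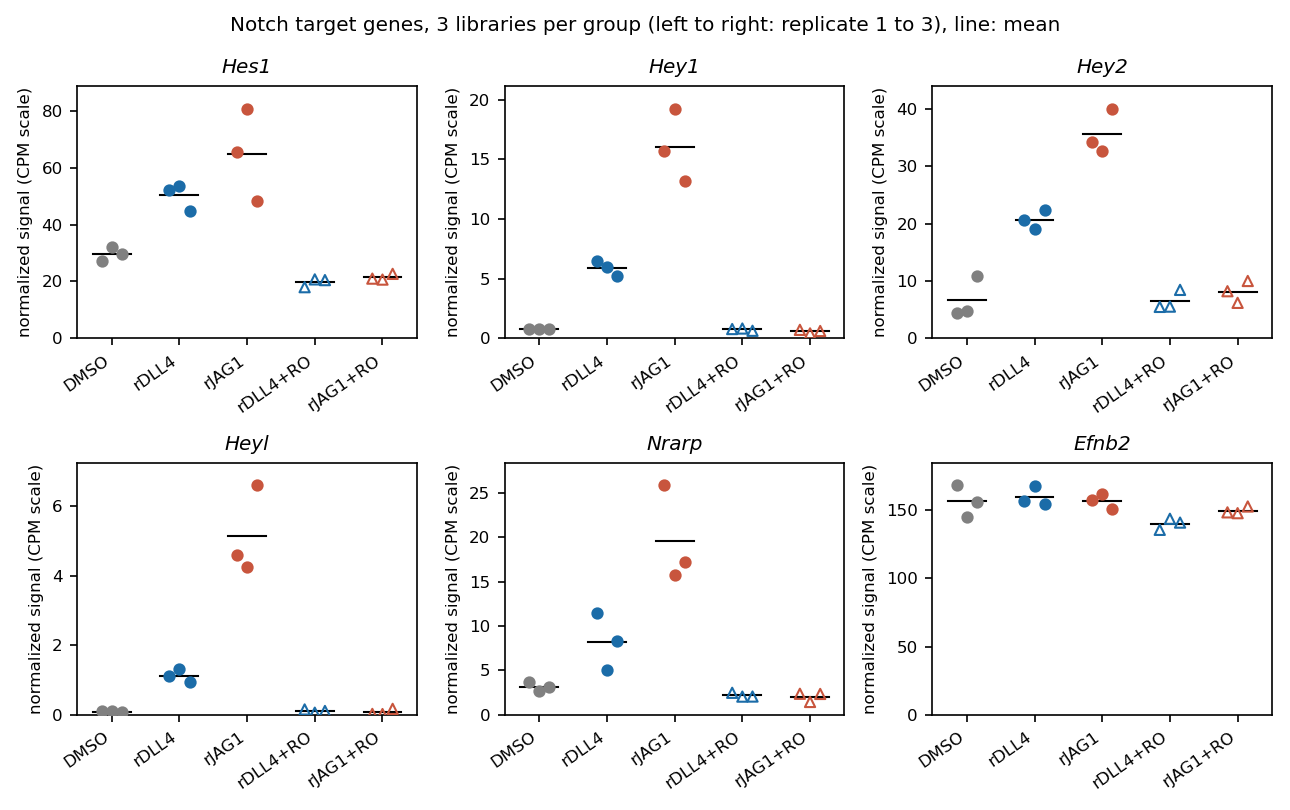
Normalized signal (counts-per-million scale, vertical axis from 0) of 6 Notch target genes in the 3 libraries of each of 5 groups; filled points are libraries with vehicle, open triangles libraries with 20 µM RO4929097, and lines are group means. Hey1, Hey2, Heyl and Nrarp are higher on rJAG1 than on rDLL4 with vehicle, and with inhibitor the libraries of both ligands overlap in these genes.

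Nrarp, which lowers Notch signalling by destabilising the intracellular domain, had a signal of 2.49, 2.06 and 2.07 on rDLL4+RO. On rJAG1+RO it was 2.38, 1.46 and 2.36. The groups overlapped, and the difference was 0.08 (−0.24 to 0.40). With vehicle it was 11.4, 5.00 and 8.30 on rDLL4 and 25.8, 15.8 and 17.2 on rJAG1.

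Hes1, the most abundant of the Hes and Hey genes here, was at 18.0, 20.7 and 20.5 on rDLL4+RO. It was at 21.0, 20.7 and 22.7 on rJAG1+RO, with a difference of −0.12 (−0.38 to 0.15). Hey2, a repressor related to Hey1 whose window above holds 2 RBPJ cores, was at 5.49, 5.54 and 8.46 against 8.23, 6.20 and 10.0. Its values overlapped, but each pair was lower on rDLL4+RO, and the difference of −0.29 (−0.62 to 0.05) was the one of the target list with the widest bound. Heyl was read 3, 1 and 1 times on rDLL4+RO and 0, 0 and 3 times on rJAG1+RO, at or under the limit that 0 reads allow, so no fold is given. Efnb2, the arterial ephrin ligand, was at 135 to 144 on rDLL4+RO and 148 to 153 on rJAG1+RO without overlap, a difference of −0.10 (−0.23 to 0.04) that did not pass.

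The groups with inhibitor were also compared with the groups with vehicle on the same ligand. No group of this experiment had inhibitor without recombinant ligand. In rDLL4+RO against rDLL4, where 17.3% of genes passed and 9.05% were lower, all 6 measured targets fell. The change on the log2 scale was −1.97 for Hey1, −1.55 for Hey2, −1.47 for Nrarp and −0.19 for Efnb2, and Hes1 had an interval of −1.57 to −1.04 (limma adjusted p from 3.7e-07 for Hey1 to 0.0493 for Efnb2). The call for Efnb2 held in 5 of 15 alternatives. In rJAG1+RO against rJAG1, where 27.1% passed and 12.7% were lower, 5 of them fell. The change was −3.41 for Hey1, −2.73 for Nrarp, −2.02 for Hey2 and −1.52 for Hes1 (limma adjusted p from 8.93e-10 for Hey1 to 7.08e-07 for Hes1), and Efnb2 did not pass (−0.20 to 0.07). Heyl passed in both (limma adjusted p 0.00104 and 7.39e-08) from 1.13, 1.33 and 0.932 on rDLL4 and 4.59, 4.25 and 6.59 on rJAG1, and its size of change is not given because of the reads it had with inhibitor. Jag1, itself a Notch ligand gene, changed by −1.22 on rDLL4 and −1.52 on rJAG1 (adjusted p 1.26e-05 and 8.03e-07). Without the replicate block 1430 genes in place of 2315 passed in rDLL4+RO against rDLL4, and 1478 without rDLL4+RO replicate 3.

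**Figure D2:**
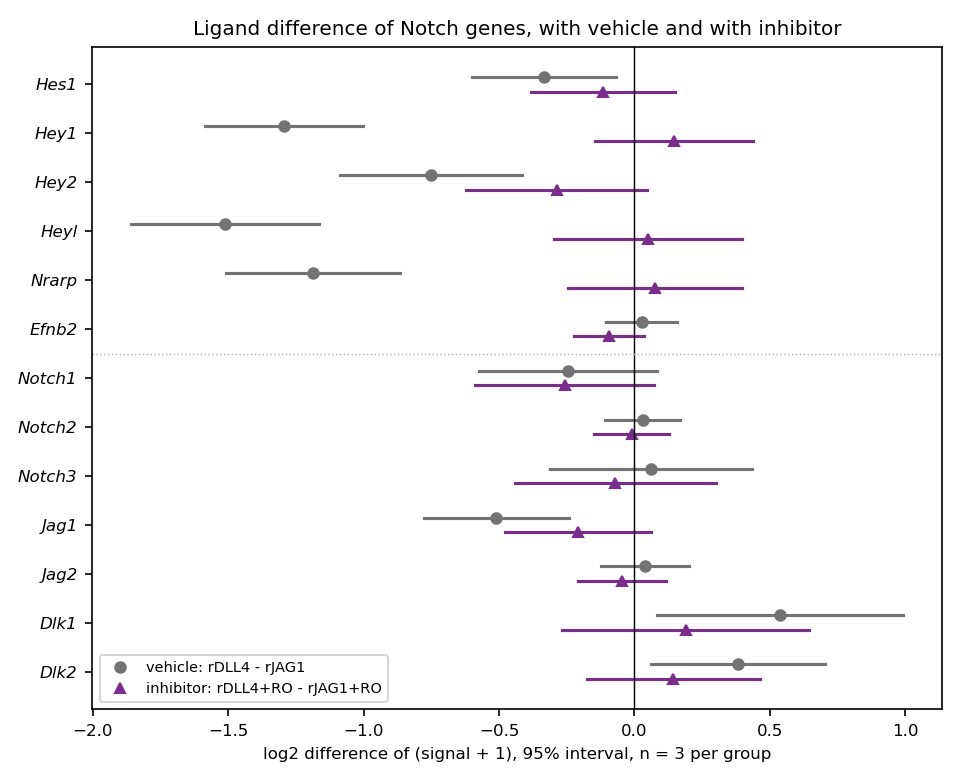
Difference between rDLL4 and rJAG1 on the log2(signal + 1) scale (horizontal axis) for the 6 listed Notch targets, above the dotted line, and 7 receptor and ligand genes below it; circles are libraries with vehicle, triangles libraries with inhibitor, and bars the 95% interval of the 15-library fit (n = 3 per group). The intervals with inhibitor all include 0, while those with vehicle lie wholly below 0 for Hes1, Hey1, Hey2, Heyl, Nrarp and Jag1 and wholly above 0 for Dlk1 and Dlk2.

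Receptors and ligands showed no called difference with inhibitor. Of 11 listed genes 7 were measured, 5 lower and 2 higher on rDLL4+RO, with differences from −0.26 to 0.19 and no interval reaching beyond 0.64. Notch1, the main endocardial receptor, was at 2.76, 3.25 and 3.57 on rDLL4+RO and 3.58, 3.83 and 4.65 on rJAG1+RO, without overlap, and its difference was −0.26 (−0.59 to 0.07). Notch2, the most abundant receptor here, was at 124 to 130 and 126 to 132, with an interval of −0.15 to 0.13. Jag1 was at 25.0, 24.3 and 24.8 against 33.6, 25.7 and 27.4, again without overlap, a difference of −0.21 (−0.48 to 0.06). Dlk1, a secreted and membrane relative of the ligands, was at 15.7, 17.9 and 11.2 against 10.6, 15.6 and 12.4. It rose with inhibitor on both coatings, by 2.48 on rDLL4 and 2.83 on rJAG1 (limma adjusted p 2.44e-06 and 3.08e-07), and the ligand difference that was then left was 0.19 (−0.27 to 0.64).

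The machinery that cuts the receptor and acts in the nucleus also held no gene that passed with inhibitor over 15 libraries. Of 17 genes 16 were measured, with differences from −0.12 (Spen, a corepressor) to 0.15 (Aph1b, a γ-secretase subunit). The catalytic subunit Psen2 differed by −0.01 (−0.23 to 0.22), and Rbpj, the DNA-binding partner, by −0.08 (−0.21 to 0.05). Adam10, the protease of the first cut, was at 560, 589 and 581 on rDLL4+RO and 520, 580 and 532 on rJAG1+RO. Of 14 modifiers of Notch 13 were measured, with differences from −0.14 (Lfng, a Fringe glycosyltransferase) to 0.09 (Dtx4, a Deltex ubiquitin ligase). In these 29 genes 0 had an unadjusted p under 0.05.

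The genes that the ligands separated with vehicle were then followed into the libraries with inhibitor. In rDLL4 against rJAG1, 118 genes passed (0.88%), 65 higher (0.485%) and 53 lower (0.395%) on rDLL4. Their differences with vehicle were selected by that test, while the differences with inhibitor come from libraries that it did not compare. Both differences share 1 estimate of the spread per gene. The unadjusted p with inhibitor is therefore not independent of that choice. All 118 differences were smaller in size with inhibitor, against 8004 of all 13407 genes. Of the 118, 112 were at most 0.5 times as large, against 5210 of all genes. A smaller difference follows in part from their choice by the difference with vehicle. The median size was 0.57 with vehicle and 0.11 with inhibitor, against 0.06 for all genes. Of the 118, 77 kept the sign (65.3%, against 53.6% of all genes), 20 had an unadjusted p under 0.05 with inhibitor (16.9%, against 3.63%) and 13 had groups that did not overlap (11%, against 8.64%). The count of 118 itself became 50, 46 and 49 without rDLL4 replicates 1, 2 and 3, 61 without rJAG1 replicate 2, 313 without DMSO replicate 3 and 31 without the replicate block.

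**Figure D3:**
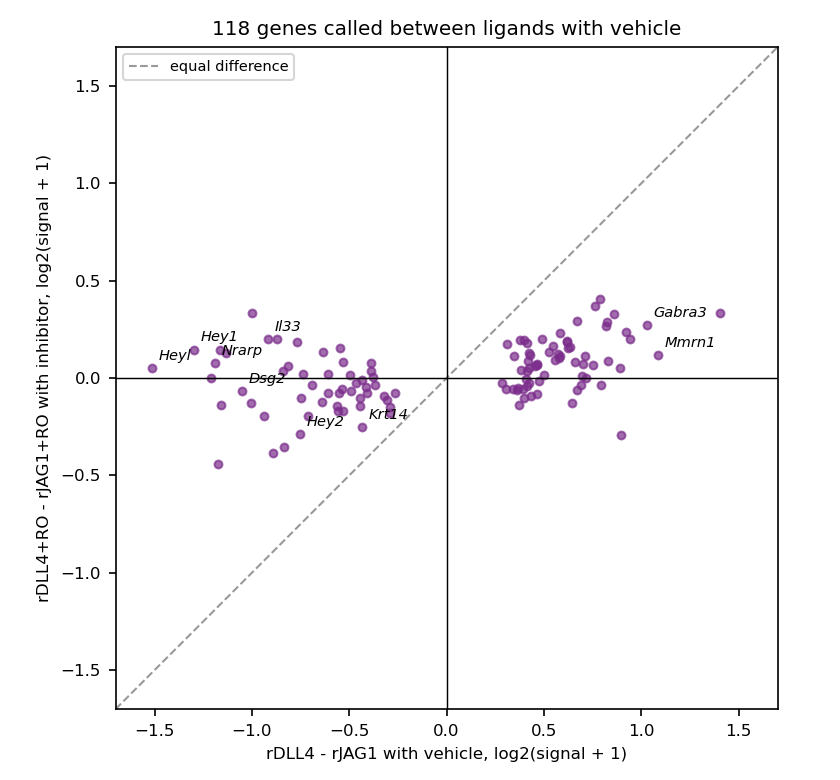
The 118 genes called between the ligands with vehicle, with their difference with vehicle on the horizontal axis and with inhibitor on the vertical axis (both rDLL4 minus rJAG1 on the log2(signal + 1) scale); the dashed line marks equal differences. The points lie in a band between −0.44 and 0.41 on the vertical axis, while they span −1.51 to 1.40 on the horizontal axis.

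Among the genes higher on rDLL4 with vehicle, Mmrn1, a secreted multimerin of endothelium and platelets, was at 12.5, 16.6 and 13.8 on rDLL4 and 6.14, 5.53 and 6.84 on rJAG1. With inhibitor it was at 25.2, 31.5 and 34.6 on rDLL4+RO and 24.5, 30.5 and 28.5 on rJAG1+RO. The ranges overlapped with inhibitor, and the difference went from 1.09 (0.82 to 1.35) to 0.12 (−0.15 to 0.39). Sema3c, a guidance semaphorin of cardiac outflow development, went from 0.89 (0.67 to 1.11) to 0.05 (−0.17 to 0.27). Gabra3, a GABA receptor subunit, kept a difference of 0.27 (0.02 to 0.53), with each pair higher on rDLL4+RO, at 22.0, 26.3 and 22.9 against 17.1, 23.7 and 18.2. Pcdh10, a protocadherin, showed 0.24 (−0.01 to 0.49) and Efemp1, a fibulin of the extracellular matrix, 0.13 (0.00 to 0.26). The unadjusted p values of these last 3 were 0.0381, 0.0628 and 0.0494, and none passed after adjustment.

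Among the genes lower on rDLL4 with vehicle, Tuft1, an acidic protein first known from enamel, was at 119, 109 and 114 on rDLL4 and 160, 175 and 163 on rJAG1. With inhibitor it was at 41.3, 38.6 and 37.7 against 40.2, 39.6 and 42.7, a difference of −0.06 (−0.19 to 0.08) in overlapping groups. Hey2 passed with vehicle at −0.75 (limma adjusted p = 0.0402), a call that held in 7 of 15 alternatives. Krt14, a keratin, differed by −0.43 (−0.57 to −0.29) with vehicle and −0.25 (−0.39 to −0.11) with inhibitor. On rDLL4+RO Krt14 was at 242, 210 and 221, and on rJAG1+RO at 287, 262 and 252, without overlap. It passed in the fit over the 6 libraries (adjusted p = 0.023) and not in the fit over 15. Of 8 measured epithelial markers 5 were lower on rDLL4 with vehicle and 0 passed with inhibitor over 15 libraries. Krt8, another keratin that passed with vehicle at −0.39, was at 198.2, 182.3 and 174.4 against 183.4, 176.6 and 165.6 with inhibitor, a difference of 0.08 (−0.07 to 0.22).

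The test of whether the ligand difference changed with inhibitor was passed by 1 gene of 13407 (0.00746%). This was Hey1, whose difference was 1.44 higher with inhibitor than with vehicle (limma adjusted p = 0.0425). No call for Hey1 remained when any of the 12 libraries concerned was left out, and it passed in 6 of 20 alternatives. Nrarp at 1.26 and Sema3c at −0.84 had limma adjusted p values of 0.0715 and 0.0865 and did not pass.

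Of the 20 named genes of smallest p with inhibitor, 12 were lower and 8 higher on rDLL4+RO, and 0 passed in the fit over 15 libraries. All 20 had the same sign in the 3 pairs and 14 had groups that did not overlap, both of which follow in part from their choice by p. Among the 28 genes of smallest p, 8 were predicted genes or pseudogenes and are not named.

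**Figure D4:**
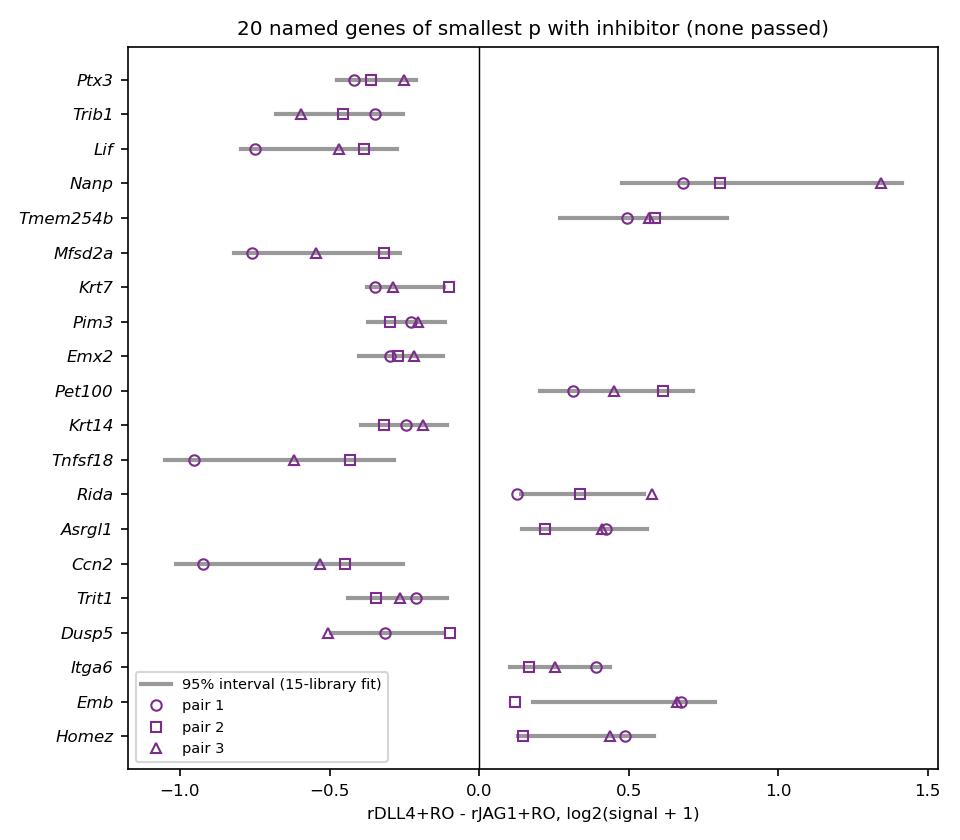
Difference between rDLL4+RO and rJAG1+RO on the log2(signal + 1) scale (horizontal axis) for the 20 named genes of smallest p; open symbols are the 3 same-numbered pairs and grey bars the 95% interval of the 15-library fit. All symbols of a gene lie on 1 side of 0, and no gene passed in that fit after adjustment over all genes.

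Ptx3 (chr3:66219910-66225805), the long pentraxin of the innate response, had the smallest p. It was at 293, 246 and 294 on rDLL4+RO and 391, 316 and 350 on rJAG1+RO. All libraries on rDLL4+RO were lower, and the difference was −0.34 (SE 0.06, unadjusted p = 7.1e-05). It passed in the fit over 6 libraries (adjusted p = 0.0051) and with DESeq2 over 15 (0.0015). With vehicle Ptx3 was at 128 to 140 on rDLL4 and 105 to 129 on rJAG1, a difference of 0.20 (0.07 to 0.33) in the other direction. The change of the difference was −0.54 with an adjusted p of 0.0591.

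Lif (chr11:4257557-4272514), a cytokine of the interleukin-6 family, was at 12.1, 13.1 and 14.0 on rDLL4+RO and 21.1, 17.4 and 19.8 on rJAG1+RO. These did not overlap, and the difference was −0.54 (−0.80 to −0.27). With vehicle the ligands differed by −0.04 (−0.30 to 0.23) in Lif. Trib1, a pseudokinase that recruits a ubiquitin ligase, was at 20.7, 13.8 and 17.5 against 26.7, 19.3 and 27.0, a difference of −0.47 (−0.68 to −0.26) in groups that overlapped. Mfsd2a, a transporter of lysophospholipids, was at 9.12, 8.81 and 11.02 against 16.1, 11.2 and 16.5, lower in each library on rDLL4+RO. Tnfsf18, a ligand of the TNF family, was at 4.51, 3.21 and 5.53 against 9.66, 4.67 and 9.02, with overlap. Lif, Trib1, Mfsd2a and Tnfsf18 passed in the fit over the 6 libraries, with limma adjusted p of 0.025, 0.023, 0.039 and 0.042. With vehicle Trib1, Mfsd2a and Tnfsf18 differed in the same direction, by −0.31, −0.23 and −0.42, and did not pass.

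Nanp, a phosphatase of sialic acid synthesis, had the largest difference of the 20, at 18.6, 22.4 and 20.8 on rDLL4+RO and 11.2, 12.4 and 7.58 on rJAG1+RO. The groups did not overlap, and the difference was 0.94 (0.48 to 1.41). Nanp passed in the fit over 6 libraries (adjusted p = 0.0051) and with DESeq2 over 15 (0.029), and its annotation overlaps Ninl on the same strand, whose difference was −0.02. Tmem254b was higher at 16.7, 22.0 and 16.7 against 11.6, 14.3 and 10.9. Its near-identical copy Tmem254c was lower at 13.0, 5.97 and 6.13 against 14.1, 12.5 and 13.1, so the split of reads between the copies is uncertain. Tmem254b passed over the 6 libraries (limma adjusted p = 0.011). Ninl and Tmem254c were chosen after their values were seen. Itga6, the laminin-binding integrin α6, was at 57.4, 52.6 and 56.5 against 43.5, 46.7 and 47.3 without overlap, a difference of 0.27 (0.10 to 0.44). The other higher genes were Pet100, Rida, Asrgl1, Emb and Homez, with differences of 0.35 to 0.48. The other lower genes outside those described below were Krt7, Pim3, Emx2 and Trit1, with differences of −0.24 to −0.27. With vehicle Emx2 differed by 0.236 (0.095 to 0.377), in the other direction and without overlap. Krt7, Pim3 and Trit1 differed by −0.12, 0.01 and −0.03 with vehicle, and none of these genes passed.

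Of the 62 genes called over the 6 libraries alone, 32 are named kinds, 7 higher and 25 lower on rDLL4+RO, and 30 are predicted genes or pseudogenes, 24 higher and 6 lower. Of these 30, 24 overlap another annotated gene, 80% against 57.4% of the 1682 listed genes of that kind. Across all 1682, 56.8% were higher on rDLL4+RO, against 48.9% of the 11725 others. With 1 pair left out at a time, which was added after seeing the data and leaves 1 residual degree of freedom, there were 42 calls without pair 1, 390 without pair 2 and 178 without pair 3, with 30, 61 and 61 of the 62 among them. Genes called in each of these fits included Ccn1, Ccn2, Igfbp3, mt-Co3, Nanp, Olfr77, Ptx3, Syn3, Tmem254b and Trib1. They were singled out after their values were seen, and Igfbp3, mt-Co3, Olfr77 and Syn3 fall outside the naming rule. These fits reuse the libraries that chose the 62, so they are no independent test of the calls. Over 15 libraries Igfbp3, Olfr77 and Syn3 had unadjusted limma p of 0.21, 0.28 and 0.15, in groups that overlapped. The other genes of this list had 0.014 (mt-Co3) or less.

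In 2 gene lists every member had an estimate on the same side of 0, and no member passed over 15 libraries. Of 23 immediate early genes, which respond within minutes to growth factors, all 23 were lower on rDLL4+RO, with a median difference of −0.21 against 0.00 for all genes, where 6718 of 13407 were lower. Of the 23, 3 had an unadjusted p under 0.05, and 19 were lower in each pair. The number lower was 21 in pair 1, 21 in pair 2 and 22 in pair 3. Dusp5, a nuclear phosphatase of ERK whose promoter window is shown above, was at 15.2, 15.2 and 24.3 against 19.1, 16.3 and 34.8. Its groups overlapped, with replicate 3 highest on both ligands, and its difference was −0.31 (−0.49 to −0.12). Spry4, an inhibitor of receptor tyrosine kinase signalling, was at 16.1, 20.7 and 21.9 against 22.9, 24.2 and 27.3, without overlap. With vehicle the list's median was −0.22, and 2 members passed, both lower on rDLL4. Dusp5 and Spry4 were not among these 2. With vehicle Dusp5 differed by −0.33 (−0.52 to −0.14), and Spry4 by 0.30 (0.09 to 0.52), in the other direction than with inhibitor.

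The second list held 20 targets of serum response factor and YAP, among them cytoskeletal genes. All 20 were lower on rDLL4+RO, with a median of −0.13, and 0 passed over 15 libraries. This rested on pairs 1 and 3, where all 20 were lower, with medians of −0.30 and −0.17, while in pair 2 only 8 were lower and the median was 0.02. Ccn2, a matricellular protein and YAP target, was at 57.3, 68.3 and 117 on rDLL4+RO and 109, 93.5 and 170 on rJAG1+RO. Replicate 3 was highest for Ccn2 in each of the 5 groups, and the groups compared overlapped, but each pair was lower on rDLL4+RO, by 0.92, 0.45 and 0.53. The difference was −0.63 (−1.01 to −0.26), with an adjusted p of 0.0051 over the 6 libraries. Ccn1, its relative, was at 141, 174 and 385 against 255, 225 and 517, a difference of −0.55 (−0.92 to −0.18) that passed over the 6 libraries (limma adjusted p = 0.0078). With vehicle Ccn2 differed by −0.51 (−0.89 to −0.13) and Ccn1 by −0.30 (−0.67 to 0.07), and neither passed. The median of the list with vehicle was −0.02.

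**Figure D5:**
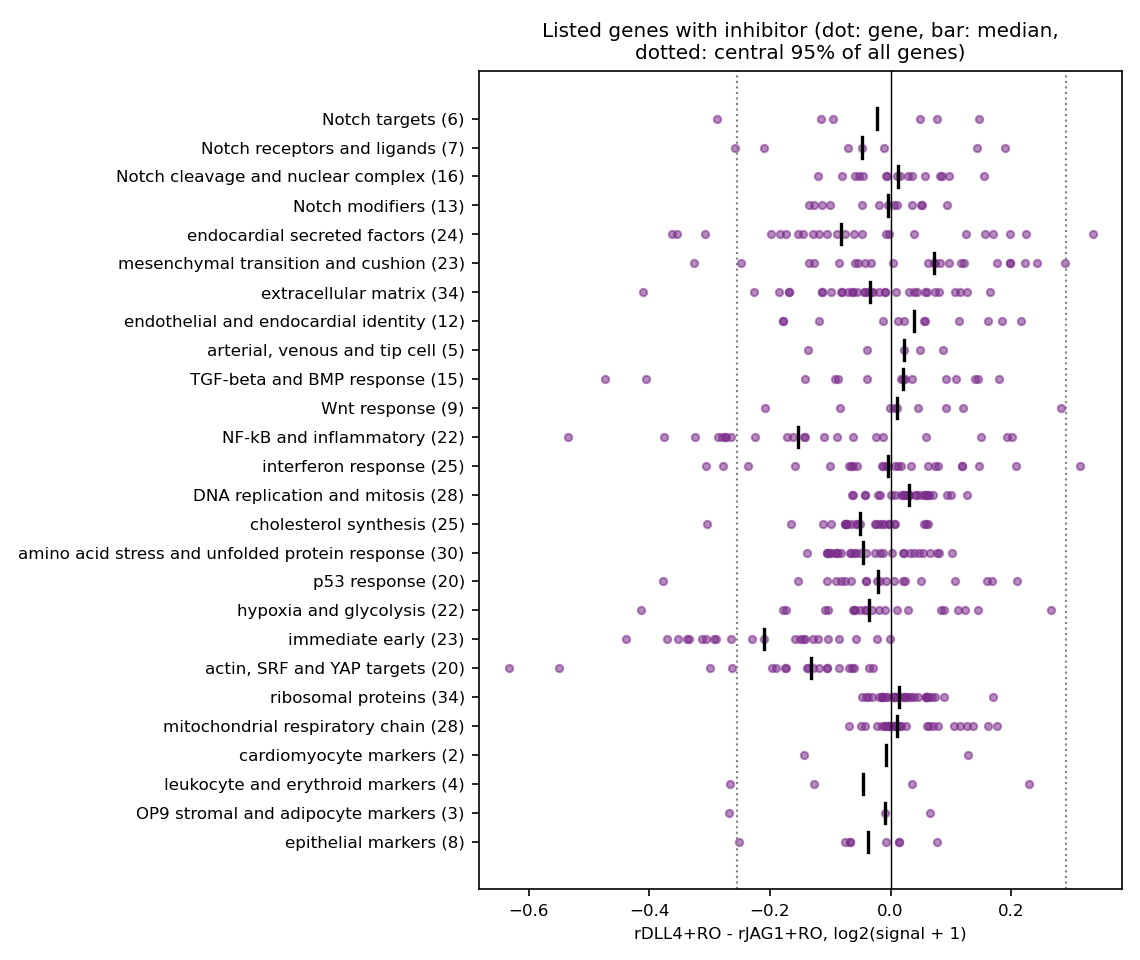
Difference between rDLL4+RO and rJAG1+RO on the log2(signal + 1) scale (horizontal axis) for the measured members of 26 gene lists (number measured in brackets); dots are genes, black bars list medians and dotted lines, at −0.26 and 0.29, hold the central 95% of all genes. The immediate early list and the list of serum response factor and YAP targets lie at or below 0 for every member, and the ribosomal list lies between −0.05 and 0.17.

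The lists tied to the endocardium held no gene that passed over 15 libraries. Of 24 measured endocardial secreted factors 17 were lower and 7 higher on rDLL4+RO, with a median of −0.08. Edn1, endothelin 1, was at 21.5, 20.9 and 26.3 against 28.6, 26.7 and 33.8, without overlap. Its difference of −0.36 (−0.67 to −0.05) passed over the 6 libraries (limma adjusted p = 0.03). With vehicle Edn1 differed by 0.36 (0.05 to 0.67), in the other direction, and did not pass. Nrg1, the neuregulin that drives trabeculation, was at 66.0, 57.3 and 63.6 against 79.4, 61.1 and 73.2. Of 23 genes of mesenchymal transition and the cushions 14 were higher and 9 lower, with a median of 0.07. Vcan, the proteoglycan versican, was at 2.85, 2.53 and 1.99 against 2.09, 1.75 and 1.62, in overlapping groups. With inhibitor it had changed by −1.67 on rDLL4 and −2.03 on rJAG1 (limma adjusted p 5.49e-07 and 3.3e-08). Of 34 matrix genes 22 were lower, and Lamb1, a laminin chain, was at 195.9, 189 and 197.9 against 238, 214 and 231, without overlap, a difference of −0.23 (−0.39 to −0.06) that passed over the 6 libraries (limma adjusted p = 0.03).

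Of 22 inflammatory genes 18 were lower on rDLL4+RO, with a median of −0.15 that was −0.25, −0.04 and −0.13 in pairs 1 to 3. Nfkbiz, a nuclear regulator of NF-κB, was at 19.3, 17.6 and 16.2 against 23.7, 21.3 and 19.5, without overlap. Of 25 genes of cholesterol synthesis 20 were lower, with a median of −0.05, and in pair 2 alone the number was 23. The interferon list was even, with 13 of 25 lower and a median of 0.00. The 28 genes of DNA replication and mitosis ran from −0.06 to 0.13 and the 34 ribosomal protein genes from −0.05 to 0.17, with no interval bound beyond 0.30 and 0.35.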

How the data were processed

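RNA of the 15 libraries of the recombinant ligand experiment was sequenced by the authors, and FastQC, cutadapt, RSEM, limma and the build GRCm38 are named per the submitters' processing notes, without versions; neither the annotation release nor the strand setting is given in the sources used here. Per gene, the authors deposited a normalized signal, not counts. Each deposited signal equals whole reads plus 0.5 times a step per library: 100% of values came out whole within 0.01 reads. Reads of near-identical copies and of overlapping or antisense genes cannot be told apart. Of 13407 identifiers 13384 matched GENCODE of GRCm38.

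log2(signal + 1) was fitted with limma 3.58.1 (R 4.3.3, mean-variance trend, all 5 groups, replicate number as a block, Benjamini-Hochberg adjustment over all genes, no filter). All adjusted p-values are from limma unless another tool is named. Deviations from group means correlated by 0.27 to 0.40 between same-numbered libraries of the compared groups, and by 0.08 at the lowest between rDLL4+RO and rDLL4, which are thus not shown to be paired. On recovered reads, edgeR 4.0.16 called 0 genes with inhibitor and DESeq2 1.42.0 called 8. The script was tested on simulated data.

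Named were the 20 genes of smallest p, all Notch genes, 2 members of smallest p of each other list and 10 genes called with vehicle; predicted genes and pseudogenes were counted only. The comparison, the 26 lists and the naming rule were chosen with earlier results of these data known. Alternatives were no block, pseudocount 0.25, mean signal of at least 5, quantile normalization, library weights, the compared groups only, edgeR, DESeq2, leaving out each library and, after seeing the data, leaving out DMSO replicate 3 or a pair. The other 2 tables were not used here. A few list members are not reported here.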

Additional observations from a re-analysis of the deposited data

Results flagged for a closer look

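In the limma fit over 15 libraries, the ligand difference of Hey1 changed with the inhibitor. The difference between rDLL4 and rJAG1 was 1.44 higher on the log2(signal + 1) scale with RO4929097 than with vehicle (limma adjusted p = 0.0425, n = 3 per group, 13407 genes tested). Each of the 3 pairs was higher on rDLL4+RO, by 0.06, 0.36 and 0.02, while all 3 libraries on rDLL4 were below all 3 on rJAG1 with vehicle. It was the 1 gene of this kind, and the call was lost when any of the 12 libraries was left out. Hey1 passed in 6 of 20 alternatives, over which the change was 1.31 to 1.83. With inhibitor it was at 8 to 19 reads per library and signals under 1, where this scale shrinks a difference.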

How the results depend on the processing

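Among the named genes and comparisons recomputed under each alternative, no difference that passed changed direction; the other genes that passed between inhibitor and vehicle were not followed one by one. The count of 0 genes between rDLL4+RO and rJAG1+RO was also 0 without the replicate block, with pseudocount 0.25 and with a mean signal of at least 5. It stayed 0 with quantile normalization, with library weights, with edgeR and without DMSO replicate 3. Genes at an unadjusted p under 0.05 numbered 487 in the main fit and 191 without the block. They numbered 1354 with library weights, 875 without DMSO replicate 3 and 1653 with the compared groups only. The count of genes that passed was 62 with the compared groups only and 8 with DESeq2, and 4 of these 8 were among the 62. Leaving out 1 library gave 0 to 2, the 2 coming without rDLL4+RO replicate 1, and leaving out 1 pair in the fit over the 6 libraries gave 42, 390 and 178 without pairs 1, 2 and 3. Between rDLL4 and rJAG1 the count of 118 became 31 without the replicate block, 282 with library weights, 42 with the compared groups only, 221 with DESeq2 and 313 without DMSO replicate 3, and 46 to 112 when 1 library was left out. For the change of the ligand difference the count of 1 became 2 without the replicate block, 0 with pseudocount 0.25, with a mean signal of at least 5 and with edgeR (where 791 had an unadjusted p under 0.05), 3 with quantile normalization, 40 with library weights, 7 with the compared groups only, 37 with DESeq2, 18 without DMSO replicate 3 and 0 to 2 when 1 library was left out. In rDLL4+RO against rDLL4 the count of 2315 became 1430 without the replicate block, 4003 with library weights and 3611 with the compared groups only, 1478 to 1882 when 1 library of the compared groups was left out, and 3079 without DMSO replicate 3. The count of 3634 in rJAG1+RO against rJAG1 stayed within 1.5 times, at 2485 to 3340 when 1 library was left out. The fits over fewer libraries have fewer residual degrees of freedom; for the other shifts the cause was not tested. Quantile normalization moved the median difference of all genes from 0 to 0.001. With 3 libraries per group the intervals given above bound differences on the log2(signal + 1) scale, given only how these libraries vary. At a signal near or under 1 this scale gives a smaller difference than the ratio of the signals. Genes near 3 reads, such as Heyl with inhibitor, carry no usable ratio.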
